A study of Homo sapiens with 3 samples.

Results

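The genes described are 8 of the epidermal growth factor receptor (EGFR) family, the receptors EGFR, ERBB2 and ERBB3 and the ligands AREG, EREG, TGFA, HBEGF and BTC. They were taken by gene symbol from a count table of 51136 genes, and each of the 8 has a row in it. The table covers PANC-1, an established human pancreatic ductal cancer line, in 3 RNA-seq libraries. The control library came from cells that received no agent, the Rg3 library from cells given 200 μM Ginsenoside Rg3 for 24 h, and the TAM library from cells given 50 μM tamoxifen for 24 h. The cells of each group grew in the same medium with serum, and the labels name no vehicle for the control. The RNA-seq asked how 2 agents that had been chosen for use against angiogenesis change gene expression in these cells. Because there is 1 library per condition, no difference below has a replicate check, and each comparison is between libraries, not between conditions.

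EGFR family receptors span the plasma membrane. A ligand outside the cell brings receptors together in pairs, and their kinase domains then start signals through the RAS-MAPK and PI3K-AKT pathways. ERBB2 binds no known ligand and serves as a partner, while ERBB3 has a weak kinase and binds neuregulins. The ligands are made as membrane proteins and cut free by proteases of the ADAM family. In pancreatic ductal cancer this pathway lies upstream of RAS, and EGFR signalling is known to contribute to the disease. The quantities are mRNA counts, so nothing here measures receptor protein or its activity.

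The reads counted on genes came to between 11300766 and 12861693 per library. Of the epithelial markers, KRT8 (7817 to 15329 counts) and KRT18 (7406 to 13162) were abundant, while KRT19 (181 to 665), KRT7 (93 to 345) and EPCAM (8 to 26) were far lower. VIM, vimentin, had 39783 to 55276 counts. CDKN2A, which is deleted in PANC-1, had 0 counts in each library. Of 15 markers of acinar, islet, blood, endothelial and stromal cells, 8 had no read in any library, 4 had at most 4 counts, and COL1A1, COL3A1 and KDR had more. COL1A1 had 1853, 1005 and 734 counts in the control, Rg3 and TAM libraries, COL3A1 214, 89 and 125, and KDR 49, 54 and 52. COL1A1 thus had more counts than KRT19, KRT7 and EPCAM in each library. The marker counts are not divided by transcript length, so their order is not an order of levels. The 15 markers of other cells summed to 2122, 1153 and 917 counts, and without those 3 genes to 5 or 6 per library. In bulk RNA, fewer cells of a kind and less RNA per cell cannot be told apart.

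The promoters of 5 members past the fold limits below are printed. ERBB2 was lower and AREG and EREG higher in the Rg3 library, while EGFR was lower and HBEGF higher in the TAM library. The promoters of ERBB3, lower with TAM, and TGFA, higher there, are not shown. Each sequence runs from 250 bases before to 50 after a RefSeq start (GRCh38.p14) on the strand of the gene. They lie at chr17:39687844-39688143 (ERBB2, plus strand), chr4:74444886-74445185 (AREG, plus), chr4:74364895-74365194 (EREG, plus), chr7:55018767-55019066 (EGFR, plus) and chr5:140346554-140346853 (HBEGF, minus). Capitals mark matches on either strand to any of 5 motifs. The motif searched for a TATA box was TATAAA. For a GC box it was GGGCGG. For a CCAAT box it was the letters of its name. For a cyclic AMP response element it was TGACGTCA. For an AP-1 site it was TGANTCA, where N is any base.
ERBB2: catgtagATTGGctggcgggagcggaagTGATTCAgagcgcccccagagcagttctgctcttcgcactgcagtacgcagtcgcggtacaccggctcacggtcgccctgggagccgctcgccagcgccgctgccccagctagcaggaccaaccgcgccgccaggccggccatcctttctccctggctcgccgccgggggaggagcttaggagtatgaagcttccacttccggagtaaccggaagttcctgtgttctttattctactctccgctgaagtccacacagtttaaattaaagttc
AREG: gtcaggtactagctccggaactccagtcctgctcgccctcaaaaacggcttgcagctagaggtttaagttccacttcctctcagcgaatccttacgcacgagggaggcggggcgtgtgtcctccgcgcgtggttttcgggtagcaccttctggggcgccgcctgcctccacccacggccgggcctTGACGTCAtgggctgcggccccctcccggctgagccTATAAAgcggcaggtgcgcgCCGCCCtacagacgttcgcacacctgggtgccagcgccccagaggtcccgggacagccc
EREG: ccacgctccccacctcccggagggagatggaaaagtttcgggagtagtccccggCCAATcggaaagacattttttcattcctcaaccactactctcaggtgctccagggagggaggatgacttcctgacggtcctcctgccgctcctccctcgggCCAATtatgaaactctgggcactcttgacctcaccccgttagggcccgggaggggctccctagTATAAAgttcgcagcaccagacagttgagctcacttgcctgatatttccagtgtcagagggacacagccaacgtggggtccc
EGFR: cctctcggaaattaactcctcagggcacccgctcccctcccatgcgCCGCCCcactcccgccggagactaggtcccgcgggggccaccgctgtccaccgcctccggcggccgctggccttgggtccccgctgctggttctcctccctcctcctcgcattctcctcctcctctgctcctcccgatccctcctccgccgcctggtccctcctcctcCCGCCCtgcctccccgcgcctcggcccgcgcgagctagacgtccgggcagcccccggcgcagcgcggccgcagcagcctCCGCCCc
HBEGF: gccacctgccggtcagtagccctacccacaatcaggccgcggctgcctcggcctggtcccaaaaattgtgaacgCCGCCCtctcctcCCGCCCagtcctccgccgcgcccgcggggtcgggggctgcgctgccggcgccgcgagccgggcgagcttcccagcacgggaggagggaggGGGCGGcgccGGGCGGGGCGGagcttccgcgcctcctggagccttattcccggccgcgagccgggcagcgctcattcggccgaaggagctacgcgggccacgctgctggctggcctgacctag

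AREG and EREG both held a TATAAA match, which began 29 bases upstream of the start in AREG and 32 in EREG, and 11.5% of 35116 RefSeq promoters of this length hold one. AREG also held TGACGTCA, 65 bases upstream, as 1.85% of promoters do, and a GC box 9 bases upstream. EREG held 2 CCAAT matches (34.6% of promoters hold at least 1) and neither a GC box nor TGACGTCA. ERBB2 held 1 CCAAT match and 1 AP-1 match, the latter 222 bases upstream. Its window covers the first base of the gene's span in GENCODE 29 (39687914), and no window at another ERBB2 start was searched. Which ERBB2 start these cells use is not known. EGFR held 3 GC boxes and HBEGF held 5, of which 2 share a base, and neither held TATAAA in the printed window. GC boxes are in 45.0% of promoters and an AP-1 match in 7.71%. A second EGFR start in RefSeq has a window at chr7:55109589-55109888, not printed, that is 42.0% GC and held 2 TATAAA and 2 AP-1 matches and no GC box. The counts do not separate transcripts by start. The printed windows differed in base composition, from 57.7% GC in EREG, 60.7% in ERBB2 and 66.3% in AREG to 75.0% in HBEGF and 75.3% in EGFR. These matches describe letters in a window and no binding was measured.

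The ligand genes EREG, AREG and BTC are neighbours on chromosome 4. In GENCODE 29 (GRCh38), EREG lies at chr4:74365143-74388751 and AREG at chr4:74445134-74455009, both on the plus strand and 56383 bases apart. BTC follows at chr4:74744759-74794686 on the minus strand, and EPGN, another EGFR ligand, precedes EREG by 49836 bases. The other members lie apart, EGFR at chr7:55019021-55211628, ERBB2 at chr17:39687914-39730426, ERBB3 at chr12:56076799-56103505, TGFA at chr2:70447280-70554193 (minus strand) and HBEGF at chr5:140332843-140346631 (minus strand).

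Reads were set against the library size after TMM scaling, the edgeR method that adjusts for RNA composition (scaled CPM, a gene's counts relative to the scaled library total), and genes were compared with each other only after division by the length of the longest transcript. Intervals are exact 95% intervals and cover counting error only. On this scale ERBB2 and EGFR stood well above the other members in the control library, with 21.2 and 14.5 scaled CPM per kilobase, and their intervals did not overlap. AREG (2.60), TGFA (2.04), EREG (1.96), HBEGF (1.90) and ERBB3 (1.78) followed, and each of these overlapped its neighbour in the order within counting error. BTC, betacellulin, was last, with 1 control read and none under either agent. A count of 0 still allows 3, which is 0.208 scaled CPM for Rg3 and 0.301 for TAM, so that no change of BTC was detectable at this depth. Summed over members, the receptors came to 37.4 per kilobase in the control, 26.3 with Rg3 and 24.4 with TAM, and the ligands to 8.53, 10.9 and 12.3. These sums have no interval and are not corrected for the trend over base composition described below. They also rest on the length used, as ERBB2 in the control was at 21.2, or at 10.1 over all annotated exons.

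The order differed between libraries. In the Rg3 library EGFR (13.0, 12.5 to 13.7 scaled CPM per kilobase) and ERBB2 (11.8, 11.1 to 12.7) overlapped. In the TAM library ERBB2 was at 17.1, EGFR at 6.54 (6.04 to 7.06) and HBEGF next at 5.22 (4.34 to 6.23), and only EGFR and HBEGF overlapped among these. The place of ERBB2 above EGFR in the control library rested on the length used: divided by the length of all annotated exons together, the values were 10.1 for ERBB2 and 11.3 for EGFR. With that length EGFR was at 10.2 and ERBB2 at 5.66 in the Rg3 library, and ERBB2 at 8.18 and EGFR at 5.13 in the TAM library. Among the ligands, AREG made up 30.5% of the summed per-kilobase level untreated, 36.5% under Rg3 and 21.1% under TAM. HBEGF made up 22.3%, 21.4% and 42.5%.

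**Figure D1:**
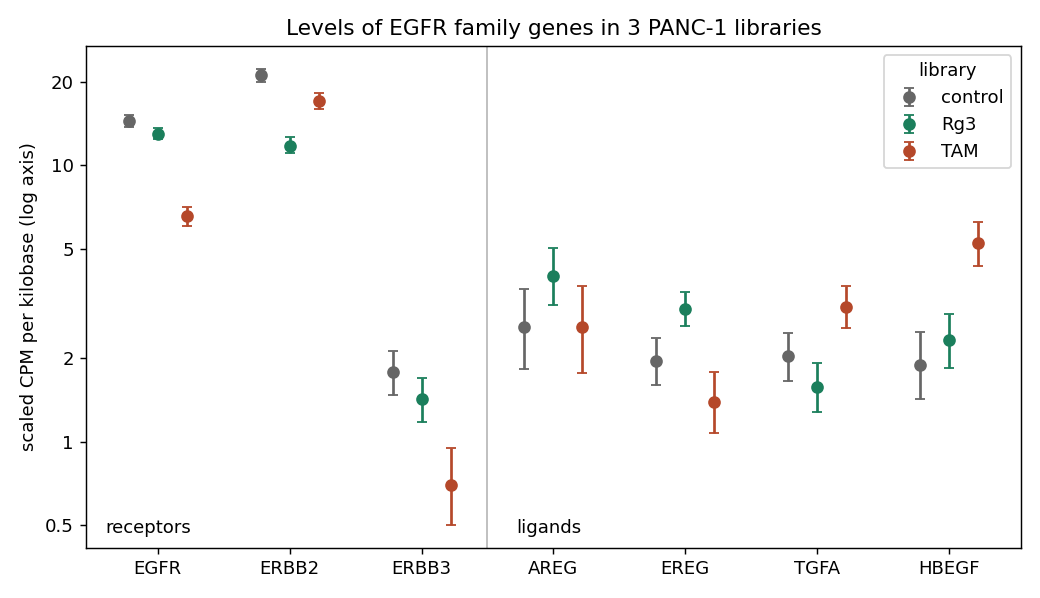
Levels of the 7 members with more than 1 count, in scaled CPM per kilobase of the longest transcript on a log axis, for the control, Rg3 and TAM libraries. Points are single libraries and bars exact 95% counting intervals. EGFR and ERBB3 are lowest and HBEGF and TGFA highest in the TAM library, ERBB2 is lowest in the Rg3 library, and AREG and EREG are highest there.

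Fold changes in these libraries followed the base composition of transcripts, which differs between the members, and this bears on each result below. Among genes with at least 50 counts and 34 to 38% GC, the median log2 fold change was 0.87 in the Rg3 library (818 genes) and -0.54 in the TAM library (688 genes), both against the control. Among genes with 54 to 58% GC it was -0.42 (1381 genes) and 0.31 (1398 genes). EREG, at 36.1% GC in its longest transcript, lies in the first class and ERBB2, at 57.5%, in the second. Between them are AREG (45.3%), TGFA (45.9%), EGFR (47.5%), HBEGF (50.9%) and ERBB3 (52.0%). With 1 library each, the agent and the preparation of its library cannot be told apart. Fold changes of members and of named genes are therefore also given after removal of a smooth trend over GC content and transcript length.

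**Figure D2:**
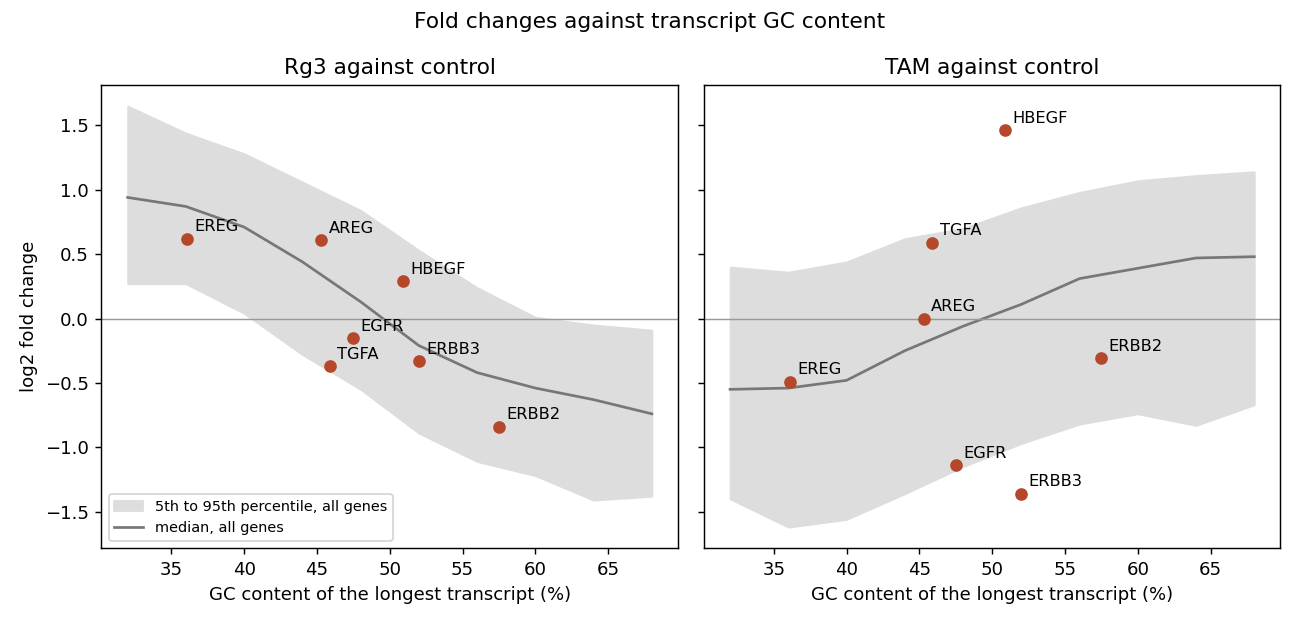
Log2 fold change of 7 members (points) against the GC content of their longest transcript in percent, for Rg3 and TAM against the control library. The line is the median of all genes with at least 50 counts in classes of 4 GC points and the grey band their 5th to 95th percentile. With Rg3 TGFA lies at the lower edge of the band and the others within it, while with TAM HBEGF lies above the band, ERBB3 below it and EGFR at its lower edge.

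In the Rg3 library, ERBB2 was lower than in the control library and the neighbouring ligand genes EREG and AREG were higher. These were the members past the fold limits, which were over 1.5 or under 0.67, for any gene that reached 10 counts in one of the compared libraries. Of the 7 members compared, 2 were called higher (28.6%) and 1 lower (14.3%). Over all 16487 genes compared, 25.0% were called higher and 19.5% lower, so that the share of members called was near the background. The median log2 fold change was -0.15 over the 7 members and 0.04 over all genes. After removal of the GC and length trend, 0 members were called in either direction, and so it was when a biological coefficient of variation of 0.2 between cultures was assumed in edgeR's exact test.

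ERBB2, the partner receptor without a ligand, had 1200 control reads, 841 under Rg3 and 840 under TAM. Its scaled level was 105 CPM in the control and 58.4 with Rg3, the lowest of the libraries, a log2 fold change of -0.84 (95% interval -0.97 to -0.71), while in the TAM library it was 84.4 (-0.31, -0.44 to -0.18), within the fold limits. Without the GC and length trend the changes were -0.28 and -0.39. Exons of ERBB2 overlap those of MIEN1 (906, 970 and 1259 counts in the control, Rg3 and TAM libraries) and PGAP3 (288, 210 and 245) on the opposite strand. Use of strand in counting is not given in the sources used here, so reads in the overlaps are uncertain.

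EREG, epiregulin, had 104 control reads, 201 under Rg3 and 64 under TAM, or 9.06, 14.0 and 6.43 scaled CPM. It was high in the Rg3 library, by 0.62 on the log2 scale (0.28 to 0.98), and the intervals of the Rg3 and control levels did not overlap. Genes of its GC class were high there as well, and with the trend removed the change was -0.20, of the other sign. In the TAM library it differed by -0.49 (-0.97 to -0.03), within the fold limits, and by 0.10 with the trend removed. With library totals it was -0.70 with TAM, past the limit.

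AREG, amphiregulin, had 37 control reads, 71 under Rg3 and 32 under TAM, or 3.22, 4.93 and 3.22 scaled CPM. The Rg3 library was the high one, with a log2 fold change of 0.61 (0.02 to 1.23) and of 0.41, within the limits, without the trend. The control and TAM libraries had the same scaled level (0.00, -0.73 to 0.72). The ratio of AREG to EREG counts, which needs no scaling between libraries, was 0.356 (0.238 to 0.522) in the control and 0.353 (0.266 to 0.465) with Rg3, so that a change in their proportion was not detectable there. The pair differs in GC content, and with the trend removed their changes were 0.41 and -0.20. No interval was computed for these values, so whether they differ beyond counting error was not tested. With TAM its interval was 0.316 to 0.776, and the 3 intervals overlap.

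The other 4 members compared stayed within the fold limits with Rg3. EGFR differed by -0.15 (-0.24 to -0.05), and by -0.01 with division by library totals. The intervals of TGFA (-0.37, -0.79 to 0.05), ERBB3 (-0.33, -0.70 to 0.05) and HBEGF (0.29, -0.23 to 0.83) reached 0. These intervals include folds past the limit for TGFA and ERBB3 on the lower side and for HBEGF on the higher side. Without the trend the changes were -0.26 for EGFR, -0.55 for TGFA, -0.06 for ERBB3 and 0.49 for HBEGF, each within the limits.

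In the TAM library, the receptors EGFR and ERBB3 were low and the ligands HBEGF and TGFA high against the control. Of the 7 members, 2 were called higher (28.6%) and 2 lower (28.6%). Over all 16079 genes compared, 17.4% were higher and 23.8% lower, and the median was -0.31 over the members and -0.02 over all genes. HBEGF, TGFA and ERBB3 kept their calls with the GC and length trend removed, and EGFR did not. With an assumed variation of 0.2 between cultures 0 members passed.

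EGFR had 1630 control reads, 1845 under Rg3 and 639 under TAM. Its scaled level was 142 CPM (135 to 149) untreated, 128 (122 to 134) under Rg3 and 64.2 (59.3 to 69.4) under TAM. Only the TAM library stood far from the others, at a fold of 0.452, or -1.14 on the log2 scale (-1.28 to -1.01). With the trend removed the change was -0.53, just within the limits. The longest EGFR transcript spans 9821 bases, and over 11022 genes fold change and transcript length had a Spearman rho of -0.45 with TAM, a description across genes that share the same libraries. The antisense gene EGFR-AS1, whose exons overlap EGFR, had 0 counts in each library.

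ERBB3, the receptor for neuregulins, had 121 reads in the control, 121 under Rg3 and 41 under TAM. The scaled levels were 10.5, 8.40 and 4.12 CPM, and the TAM library was the low one. Its log2 fold change of -1.36 (-1.90 to -0.83) was the largest decrease among the members, and it was -1.18 with the trend removed. The interval around -1.36 contains that of EGFR with TAM (-1.28 to -1.01), so the order of these values is within counting error. ERBB3 shares exons with AC034102.2 on the same strand in GENCODE 29, a gene with no row by that symbol in the count table.

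HBEGF, heparin-binding EGF-like growth factor, had 52 control reads, 80 under Rg3 and 124 under TAM. On the scaled level these were 4.53 (3.38 to 5.94), 5.56 (4.41 to 6.91) and 12.5 (10.4 to 14.9) CPM. The TAM library was 2.75-fold higher than the control, 1.46 on the log2 scale (0.98 to 1.96), and its interval overlapped neither of the others. The change was 1.23 with the trend removed and 1.25 with library totals. The ratio of HBEGF to ERBB3 counts, a pair of nearly equal GC content, was 0.430 (0.304 to 0.600) untreated, 0.661 (0.492 to 0.884) under Rg3 and 3.02 (2.11 to 4.42) under TAM. Their longest transcripts differ in length, at 2386 and 5919 bases, and the ratio uses the same counts as the changes above.

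TGFA, transforming growth factor alpha, had 101 control reads, 98 under Rg3 and 132 under TAM, or 8.80, 6.81 and 13.3 scaled CPM. It was 1.51-fold higher in the TAM library (0.59 on the log2 scale, 0.21 to 0.98), barely past the limit. With library totals it was 0.38, within the limits, and with the trend removed 0.83. The ratio of TGFA to EGFR counts was 0.0620 (0.0502 to 0.0758) untreated, 0.0531 (0.0429 to 0.0651) under Rg3 and 0.207 (0.170 to 0.250) under TAM, where it was high.

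**Figure D3:**
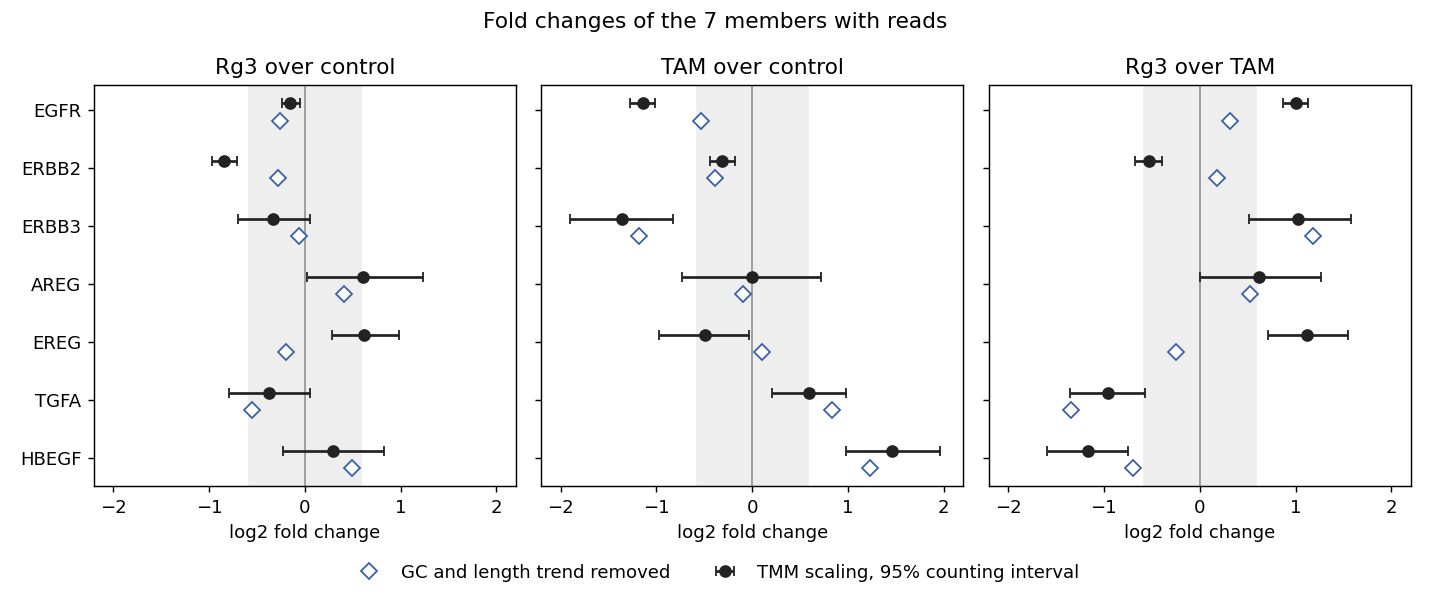
Log2 fold changes of the 7 members for Rg3 over control, TAM over control and Rg3 over TAM. Filled points with bars are TMM-scaled values with exact 95% counting intervals, open diamonds the values without the GC and length trend, and the grey band marks folds from 0.67 to 1.5. EREG and ERBB2 with Rg3 move into the band without the trend, while HBEGF and ERBB3 with TAM remain outside.

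Set against each other, the Rg3 and TAM libraries differed past the limits in 6 of the 7 members. These values share their libraries with the comparisons above. EGFR was 2.00-fold higher in the Rg3 library (1.00 on the log2 scale, 0.87 to 1.13), ERBB3 2.04-fold (1.03, 0.51 to 1.58), EREG 2.17-fold (1.12, 0.71 to 1.55) and AREG 1.53-fold (0.62, 0.00 to 1.27). HBEGF (-1.17, -1.59 to -0.75) and TGFA (-0.96, -1.35 to -0.57) were lower. This made 4 of 7 members higher (57.1%) and 2 lower (28.6%), where 35.1% and 30.2% of 16493 genes were. The AREG call was lost with DESeq2's size factors (0.58). ERBB2, at -0.53 (-0.67 to -0.39) and 0.18 without the trend, lay within the limits. Without the trend ERBB3 (1.18), TGFA (-1.34) and HBEGF (-0.70) were still called, AREG (0.53) and EGFR (0.32) were not, and EREG turned to -0.25. The ratio of EGFR to ERBB2 counts was 1.36 (1.26 to 1.46) untreated, 2.19 (2.02 to 2.38) under Rg3 and 0.761 (0.685 to 0.844) under TAM, and no pair of these intervals overlaps. EGFR and ERBB2 lie in different GC classes, and with the trend removed they changed nearly alike, by -0.26 and -0.28 with Rg3 and by -0.53 and -0.39 with TAM.

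Of the family members outside the 8, the neuregulin genes NRG1 and NRG2 were expressed and the others were near 0. NRG1 had 189 control reads, 232 under Rg3 and 210 under TAM, and differed by -0.03 (-0.31 to 0.25) and 0.36 (0.07 to 0.65). NRG2 had 130, 155 and 188 counts, with changes of -0.07 (-0.42 to 0.27) and 0.74 (0.41 to 1.07), and was the 1 called gene of the 2 compared. With the trend removed NRG2 was at 0.46 with TAM, within the limits, while NRG1 with TAM (0.86) and NRG2 with Rg3 (0.65) passed them. ERBB4 had 5 counts in the Rg3 library and 0 in the others, EGF and NRG4 had 1 count with TAM alone, and EPGN and NRG3 had 0 in each library.

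Around the receptors, 6 further lists of genes were followed. Together with the rest of the family above, 18 of 64 genes compared were higher (28.1%) and 6 lower (9.38%) with Rg3, where 25.0% and 19.5% of all genes were, with a median of 0.12. With TAM 13 of 65 were higher and 21 lower (32.3%), where 17.4% and 23.8% of all genes were, with a median of -0.15. Without the trend the higher and lower counts were 7 and 2 with Rg3 and 9 and 7 with TAM. In the proteases and partners that release the ligands, 1 of 5 genes was higher and 0 lower with Rg3 (median -0.31), and 1 was higher and 1 lower with TAM (median -0.13). This list's medians without the trend were 0.22 with Rg3, of the other sign, and -0.13 with TAM. ADAM10, a protease that frees EGF and BTC, had 655, 1449 and 269 counts in the control, Rg3 and TAM libraries and changed by 0.82 (0.68 to 0.95) and -1.08 (-1.29 to -0.87). Without the trend these were 0.15 and -0.13. ADAM17, which frees AREG, EREG, TGFA and HBEGF, had 292, 428 and 192 counts and stayed within the limits (0.22 and -0.40, and -0.46 and 0.34 without the trend). FRMD8, which stabilises the partners of ADAM17, was higher with TAM (0.77, 0.61 to 0.92), and at 0.49, within the limits, without the trend.

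Among 17 adaptors and members of the RAS-MAPK relay, 6 were higher and 2 lower with Rg3 (median 0.15), and 2 were higher and 7 lower with TAM (median -0.38). The shares with Rg3 were 35.3% and 11.8%, against 25.0% and 19.5% of all genes. Those with TAM were 11.8% and 41.2%, against 17.4% and 23.8%. The list's medians without the trend were 0.29 with Rg3 and -0.15 with TAM. The adaptor GAB1 (1.26, 0.59 to 1.97) and the RAS activator SOS1 (1.11, 0.87 to 1.36) were highest with Rg3, and the kinases ARAF (-0.73, -0.86 to -0.60) and MAPK3 (-0.71, -0.84 to -0.57) lowest. With TAM, SOS2, another RAS activator, was lower (-1.25, -1.82 to -0.70), and HRAS (0.83, 0.74 to 0.93) and MAP2K2 (0.61, 0.50 to 0.71) were highest. With the trend removed, none of the 4 Rg3 changes passed the limits (GAB1 0.58, SOS1 0.41, ARAF -0.11 and MAPK3 -0.01). With TAM SOS2 stayed past them at -0.65, and HRAS (0.29) and MAP2K2 (0.24) did not.

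In the PI3K-AKT and STAT3 relay, 4 of 9 genes were called higher, and 2 lower, with Rg3 (median 0.58), and 1 was higher and 6 lower with TAM (median -0.78). These are 44.4% and 22.2% with Rg3, against 25.0% and 19.5% of all genes, and 11.1% and 66.7% with TAM, against 17.4% and 23.8%. Without the trend the medians were 0.00 and -0.12. PIK3CA, a catalytic subunit of PI3K, was higher with Rg3 (1.13, 0.82 to 1.44), and the kinases AKT1 (-0.72, -0.78 to -0.66) and AKT2 (-0.62, -0.64 to -0.60) were lowest. With TAM, the regulatory subunit PIK3R1 was lower (-1.40, -2.07 to -0.76) and PIK3R2, another one, higher (0.62, 0.48 to 0.77). With the trend removed PIK3R1 stayed past the limits at -0.68, and PIK3CA (0.26), AKT1 (-0.01) and AKT2 (-0.03) with Rg3 and PIK3R2 (0.37) with TAM did not.

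Of 10 genes that restrain the receptors or carry them off the membrane, 3 were higher and 0 lower with Rg3 (median -0.07), and 0 were higher and 4 lower with TAM (median -0.32). USP8, a deubiquitinase of endosomes, was highest with Rg3 (0.97, 0.73 to 1.22), followed by the endocytic adaptor EPS15 (0.80, 0.55 to 1.06). The ubiquitin ligase CBL (-1.20, -1.39 to -1.02) and EPS15 (-1.15, -1.56 to -0.75) were lowest with TAM. Without the trend each of these 4 changes lay within the limits (0.40, 0.11, -0.47 and -0.53).

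Feedback inhibitors of the MAPK relay were called higher in 4 of 9 cases and lower in 0 with Rg3 (median 0.48), and in 3 and 3 of 10 with TAM (median -0.22). DUSP6, the phosphatase of ERK, had 115, 275 and 89 counts and was 0.93 higher with Rg3 (0.61 to 1.26), 0.82 without the trend. SPRY4, an inhibitor of receptor signalling to RAS, had 445, 849 and 688 counts. It was higher in both treated libraries, by 0.61 (0.44 to 0.77) and 0.83 (0.66 to 1.01), and by 0.77 and 1.01 without the trend. DUSP5 was higher with TAM (0.68, 0.41 to 0.96), and the RAS inactivators NF1 (-1.54, -1.82 to -1.27) and RASA1 (-1.32, -1.74 to -0.92) were lower there, while NF1 was 0.71 higher with Rg3 (0.55 to 0.87). Without the trend NF1 was at -0.65 and RASA1 at -0.91 with TAM, while DUSP5 with TAM (0.33) and NF1 with Rg3 (0.24) were within the limits.

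The last list held genes that EGFR signalling is known to induce. Of 12 compared, 5 were higher with TAM and 0 lower (median 0.44), while 0 were higher and 2 lower with Rg3 (median -0.38). The share higher with TAM was 41.7%, against 17.4% of all genes, and the share lower with Rg3 16.7%, against 19.5%. IER3, an immediate early gene, had 2303, 1923 and 4372 counts and changed by -0.59 with Rg3 (-0.67 to -0.50) and 1.13 with TAM (1.06 to 1.20). JUNB, an AP-1 subunit, had 176, 177 and 345 counts and was 1.18 higher with TAM (0.91 to 1.45). Without the trend the list's medians were 0.19 with Rg3 and 0.32 with TAM, with IER3 at -0.04 and 0.65 and JUNB at 0.67 with TAM. MYC and CCND1 stayed within the limits in both libraries.

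**Figure D4:**
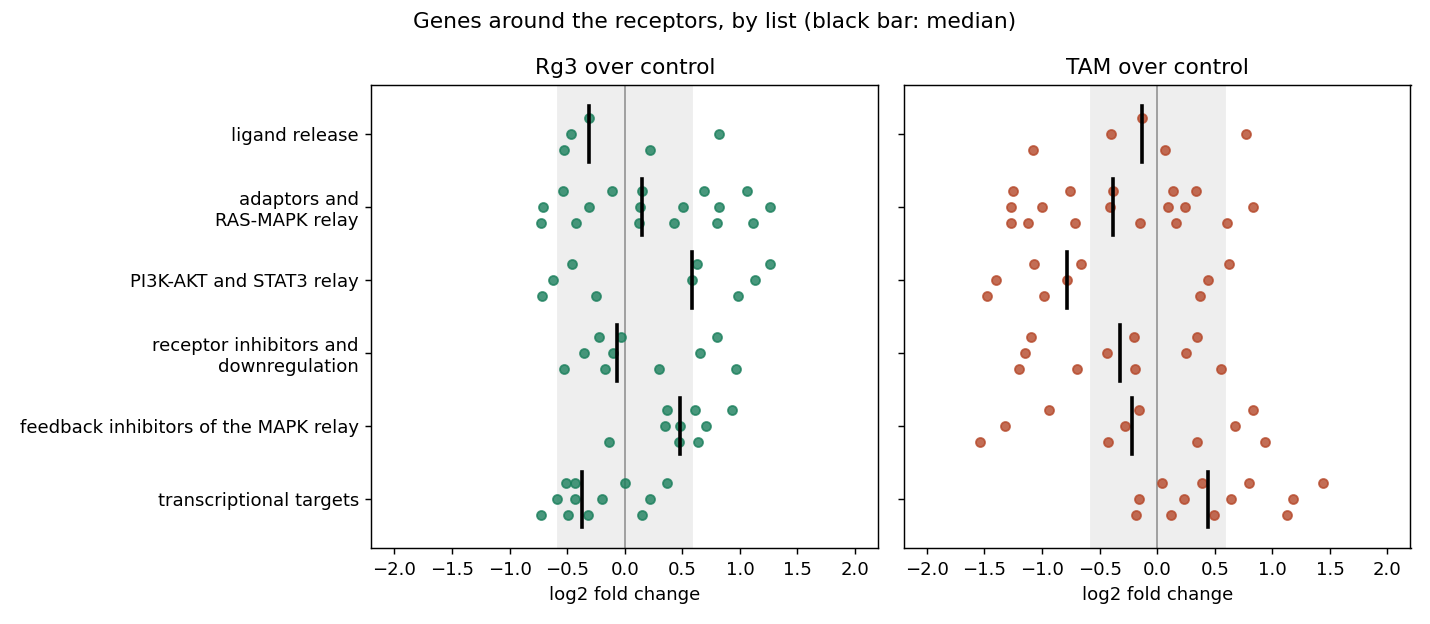
Log2 fold changes of the genes in 6 lists around the receptors, 1 point per gene compared, for Rg3 and TAM over the control library. Black bars are list medians and the grey band marks folds from 0.67 to 1.5. The PI3K-AKT list has its median at 0.58 with Rg3 and -0.78 with TAM, and the transcriptional targets at -0.38 and 0.44.

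Among 8423 other genes with at least 100 counts in every library, the 3 nearest to EGFR over both log2 fold changes were CACHD1, AMOTL1 and SOCS6, at distances of 0.047, 0.055 and 0.063. CACHD1 had 351, 408 and 135 counts, AMOTL1 397, 439 and 151, and SOCS6 425, 494 and 161. The likeness rests on 3 libraries and on fold changes with the trend left in. Without the trend the changes with Rg3 and TAM were -0.30 and -0.77 for CACHD1 and -0.17 and -0.67 for AMOTL1. For SOCS6 they were -0.82 and -0.50, and for EGFR -0.26 and -0.53.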

How the data were processed

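PANC-1 RNA from 3 libraries, 1 per condition, was sequenced on an Ion Proton instrument. The authors assessed reads with FAST-QC, aligned them with TopHat, assembled mapped reads with MAQ and deposited gene counts of reads as whole numbers, without normalization. The submitters' processing notes name GRCh38, and the annotation, counting tool and use of strand are not given in the sources used here. Groups came from the labels, and 0 columns of values were left out.

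From the deposited counts, TMM factors (edgeR 4.0.16, R 4.3.3) came to 1.02 (control), 1.12 (Rg3) and 0.879 (TAM). Fold changes, with exact 95% Clopper-Pearson intervals, and levels, with exact 95% Poisson intervals, were computed in Python 3.11.15 with SciPy 1.17.1. Reads are not independent molecules, so the intervals cover counting error only. A gene entered a comparison if it reached 10 counts in one of the compared libraries. Smaller counts than 3 were raised to that floor before a ratio was formed, and a call meant a ratio over 1.5 or under 0.67. These limits are the study's, whose Limma adjusted p could not be computed without replicates, so no test of conditions was made. Library totals in place of TMM shift every log2 fold change by 0.14 (Rg3) and -0.21 (TAM).

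Lengths, GC content and positions came from GENCODE 29 (GRCh38) and promoters from RefSeq, where 7 of the 8 members matched by symbol. The trend on GC content and log length was a loess fit (span 0.3) to genes with at least 50 counts. Genes with a transcript by that name were 86.6% of those compared for Rg3 and 87.2% for TAM, and the rest could not be called after its removal. Of the 8 transcripts, those of EGFR (1.41%), ERBB2 (0.80%) and EREG (0.35%) shared stretches of 50 bases with transcripts of other genes.

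The members, gene lists and rules were chosen with earlier results of these data known. The text names every member and family gene, up to 2 of the highest and 2 of the lowest called genes per list and agent with at least 50 counts, the 3 nearest genes to EGFR, and genes given as background to a list (ADAM17, MYC, CCND1), which were added after their values were seen. The computations were first tested on simulated counts. A few genes that this rule names are not reported here.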

Additional observations from a re-analysis of the deposited data

How the results depend on the processing

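No paired analysis was possible because a single library stands for each treatment, and for the same reason none could be left out. Each count below is higher first, then lower. DESeq2's size factors changed no call of a member against the control, but left 3 members higher for Rg3 against TAM, without AREG, as did the binomial test (adjusted p 0.0708), and the 21 log2 fold changes of members stayed within their counting intervals. With library totals, 6 of the 21 left them, 1 member was higher with TAM, 1576 of all genes were higher with TAM and 3140 lower for Rg3 against TAM, and the lists around the receptors had 2 genes lower with Rg3 and 7 higher with TAM. The exact binomial test on reads left 1 member higher with Rg3, EREG, as AREG missed an adjusted p under 0.05 (Benjamini-Hochberg, 0.0669). With the GC and length trend removed, members called were 0 and 0 with Rg3, 2 and 1 with TAM and 1 and 2 for Rg3 against TAM. EREG reversed to -0.20 with Rg3 and -0.25 for Rg3 against TAM. All genes were then 1575 and 1202 with Rg3, 1793 and 2335 with TAM, and 3692 and 2013 between the agents. The lists had 7 and 2 with Rg3, 9 and 7 with TAM and 20 and 8 between the agents. Fewer genes could be called there, since some lack a transcript by that name. An assumed variation of 0.2 left 0 and 0 members with Rg3 (64 and 92 of all genes), 0 and 0 with TAM (109 and 365) and 0 and 1, HBEGF, between the agents (2939 and 2156). At 0.4, members were 0 throughout and all genes 0 and 1 with Rg3, 0 and 1 with TAM and 0 and 0 between the agents. A minimum of 50 counts left 2139 of all genes lower with Rg3 and 2529 with TAM, through fewer genes compared, and members were the same in number. The depth, 32 to 201 counts for the ligands other than BTC, limits their precision to the intervals given.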
